A study of Mus musculus with 12 samples.

Results

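Livers of germ-free (GF) male mice were compared with livers of germ-free female mice, to describe which metabolic genes differ between the sexes in the absence of microbes. The genes considered were autosomal genes with a mean normalized value of at least 10 over the 6 GF libraries, which held for 11696 of the 41128 genes in the table. Of these, 11151 had a mean of at least 10 in both sexes, 166 in males only and 379 in females only. The genes nearest the limit were Runx1 and Ankrd42 inside it, both with a mean of 10.00, and Pafah1b3 (9.99) and Rap1gap2 (9.98) outside it.

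The mice were C57BL/6 littermates kept in sterile isolators until weaning, and one library was made from the snap-frozen liver of each mouse at 6 weeks of age. The GF groups, 3 males and 3 females, stayed in isolators throughout. The conventionalized (CV) groups, again 3 males and 3 females by their labels, left the isolators at weaning on day 21 and lived for 3 weeks on soiled bedding from the animal facility. The labels do not give litter or cage, so p-values measure the spread between these mice. Values are read counts per gene divided by a size factor for each library, and differences are given as male minus female after log2(value + 1), so the change of a gene with low values comes out too small.

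Sex differences of the mouse liver are background to this comparison. Growth hormone is released in pulses in males and more continuously in females, and the liver reads this pattern through the growth hormone receptor, the kinase JAK2 and the transcription factor STAT5B. Repressors such as BCL6 in males and CUX2 in females add to the pattern, and many of the genes that differ encode cytochromes P450, sulfotransferases, transporters and secreted proteins.

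The labelled sex of the GF livers was checked first. Xist, the RNA of the inactive X chromosome, ranged from 9.32 to 21.3 in GF males and from 7607 to 11928 in GF females. The Y-linked gene Ddx3y ranged from 394 to 463 in GF males and was at 0 in the 3 GF females. Every GF library therefore matched its label. The library labelled CV male 3 did not, since it had a Xist value of 2382 and a Ddx3y value of 0, and CV values are given with and without it.

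The GF libraries also differed in composition between the sexes. Mitochondrial ribosomal RNA genes took 9.36 to 11.5% of the reads in males and 13.4 to 16.4% in females. Reads outside 10 abundant loci, those with at least 1% of GF reads together with the mitochondrial ribosomal RNA genes, numbered 3182898 to 4804131 in males and 1676662 to 2431058 in females. Neither range overlapped, and the exact two-sided permutation test gave p = 0.1 for each (adjusted p = 0.133 over 4 such tests), the smallest that 20 relabellings allow. Sex and composition cannot be told apart in these 6 libraries. With the mitochondrial ribosomal RNA share as a covariate 13 genes were called, and with the log2 number of reads outside the abundant loci 18, against 121 without a covariate.

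Of the 11696 genes, 121 differed between GF males and GF females (1.03%, limma adjusted p under 0.05). They comprised 79 genes higher in males (0.675%) and 42 higher in females (0.359%). This split depended on the scaling, since 92.8% of calls were higher in males after scaling to all reads and 53.8% after scaling to reads outside the abundant loci. The median difference of the called genes was 2.69 for those higher in males and -2.70 for those higher in females, whereas the median over all 11696 genes was 0.02. Differences of 4 or more on the log2 scale were found in 24 of the genes higher in males and in 13 of those higher in females. Of the called genes 112 were protein coding, and 97 had a mean of at least 10 in both sexes. Libraries of the sexes did not overlap in any called gene, which was also true of 2192 of all 11696 genes (18.7%), 10.1% with males higher and 8.68% with females higher. The count of called genes depended on single libraries, and was 56 without GF female 1, 62 without GF male 3, 75 without GF male 2 and 546 without GF female 2.

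**Figure D1:**
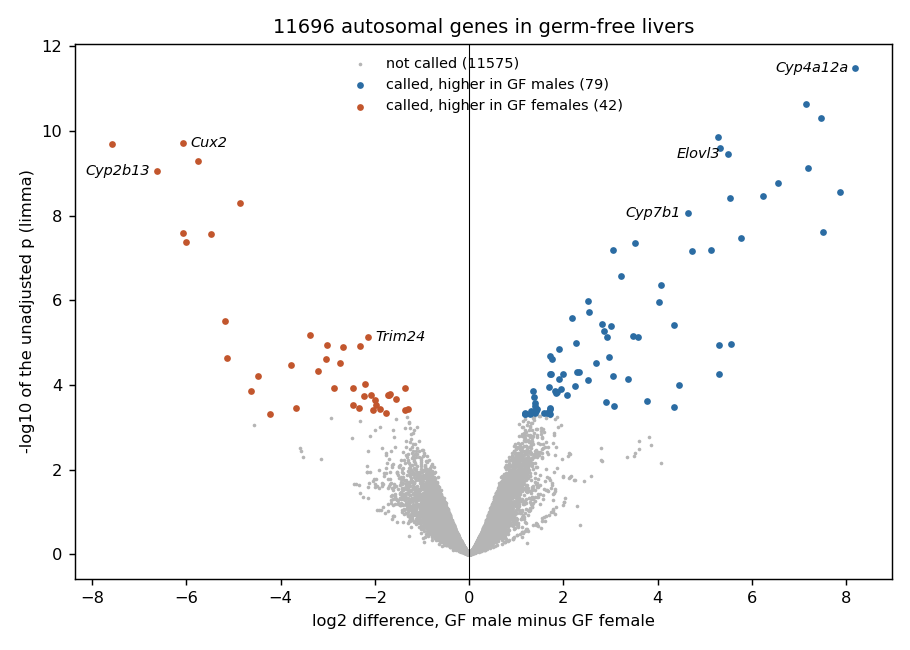
Each point is one of the 11696 autosomal genes, with the log2 difference (GF male minus GF female) on the horizontal axis and -log10 of the unadjusted limma p on the vertical axis. The 79 genes called higher in males and the 42 called higher in females are coloured, and Cyp4a12a has the largest difference toward males, 8.20.

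Regulators of the growth hormone axis are described first. Of 27 genes of the growth hormone, STAT5 and IGF1 axis, 0 were called higher in males and 2 higher in females (7.41%, beside 1.03% of all genes), and the median difference was 0.17. Cux2, a repressor known for its presence in female liver, had values of 7.16, 3.99 and 7.09 in GF males and 374, 489 and 533 in GF females. All female livers lay far above all male livers, and the difference was -6.06 ± 0.33 (SE, limma adjusted p = 2.89e-07). Cux2 had a male mean of 6.08 and entered the test through its female values, and 26 of the 27 genes had a mean of at least 10 in both sexes. Trim24, a transcriptional cofactor, was at 179, 91.8 and 113 in males and 529.8, 497 and 611 in females (-2.14 ± 0.29, adjusted p = 0.00193).

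The signalling components themselves did not pass the test. Ghr, the growth hormone receptor, was at 1954, 2980 and 2378 in males and 1171, 1718 and 1181 in females, a difference of 0.85 ± 0.28 (adjusted p = 0.228). Stat5b differed by 0.22, Igf1 by 0.45, Bcl6 by 0.19, Socs2 by -0.62 and Cish by -0.40, and in each of these the sexes overlapped. Jak2 (-0.91, adjusted p = 0.263) and Tox (-1.11, adjusted p = 0.161) were lower in every male than in any female but were not called. The sexes did not overlap in 2 of the 27 genes with males higher and in 4 with females higher, beside 10.1% and 8.68% of all genes.

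Of the hormone receptors, Prlr, the prolactin receptor, was called. Its values were 1424, 1109 and 927 in males and 3005, 3477 and 2358 in females (-1.36 ± 0.28, adjusted p = 0.0408). Esr1, the estrogen receptor alpha, was at 61.8, 50.6 and 66.6 in males and 254, 207 and 104 in females, and it missed the threshold (-1.55 ± 0.34, adjusted p = 0.0563). Both receptors had every female above every male, as did 8.68% of all genes. Esr2, Pgr and Gper1 were below the limit on the mean value.

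The motif TTCNNNGAA, to which STAT5 proteins bind, was searched on both strands in the 250 bases before the RefSeq start of each gene (build GRCm38.p6). Of the 61 genes called higher in males that had a promoter sequence, 4 held the motif (6.56%). Of 32 such genes called higher in females, 4 held it (12.5%). The share was 7.29% of the 9059 genes with a promoter sequence among the 11696, and 8.13% of all 27025 genes with one. The windows around it are shown for the called genes with established symbols, 5′ to 3′ on the gene's strand, with the motif in capitals, since growth hormone signals to the liver through STAT5B. A match is a description of the letters only.
A1bg: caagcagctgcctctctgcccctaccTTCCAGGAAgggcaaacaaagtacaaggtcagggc
Prlr: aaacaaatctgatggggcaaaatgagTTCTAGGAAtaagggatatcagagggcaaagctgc
Slc22a26: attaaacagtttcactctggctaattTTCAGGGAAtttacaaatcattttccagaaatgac
Sult3a1: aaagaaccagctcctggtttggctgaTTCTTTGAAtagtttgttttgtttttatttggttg
C8a: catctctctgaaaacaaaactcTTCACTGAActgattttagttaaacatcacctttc
Gstm6: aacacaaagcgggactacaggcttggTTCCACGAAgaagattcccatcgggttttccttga
Nox4: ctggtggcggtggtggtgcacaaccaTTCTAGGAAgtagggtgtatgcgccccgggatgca

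The first 4 of these genes were higher in females and the last 3 in males. The motif began 84 bases before the start in A1bg, 110 in Prlr, 141 in Slc22a26, 109 in Sult3a1, 228 in C8a, 128 in Gstm6 and 222 in Nox4. The window of Slc22a26 lies at chr19:7802774-7802834 on the minus strand and that of Prlr at chr15:10223770-10223830 on the plus strand.

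The major urinary proteins, pheromone carriers that the liver secretes, were higher in GF males. Of 17 members tested, 16 were called higher in males and 0 higher in females (94.1%, beside 1.03% of all genes), with a median difference of 5.33. Only 13 of the 17 had a mean of at least 10 in both sexes, and called members such as Mup1, Mup15 and Mup8, with female means of 2.53, 3.44 and 0, entered the test through their male values. Mup7 was at 7974, 23435 and 17129 in males and 77.0, 95.8 and 76.7 in females, a difference of 7.46 ± 0.36 (adjusted p = 1.19e-07). Mup20, known as darcin, was at 5328, 26036 and 15298 in males and 272, 303 and 159 in females (5.76 ± 0.48, adjusted p = 1.58e-05). The lowest male stood well above the highest female in both genes, although males differed among themselves several-fold in Mup20.

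Smaller differences were found in Mup3 (2.97 ± 0.45) and Mup10 (3.01 ± 0.39), whose female livers still had means of 7861 ± 4337 and 1738 ± 950.3 (SD, n = 3). Mup2 was the tested member that was not called (2.14 ± 0.61, adjusted p = 0.162). Mup8 had 99 reads in males and 0 in females. Near-identical copies make the values of single Mup genes uncertain, since 78.1% of the 50-base windows of the Mup17 transcript and 100% of those of Mup15 also occur in other genes. For Mup21 the share was 19.3%, and its difference was 5.54 ± 0.38.

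**Figure D2:**
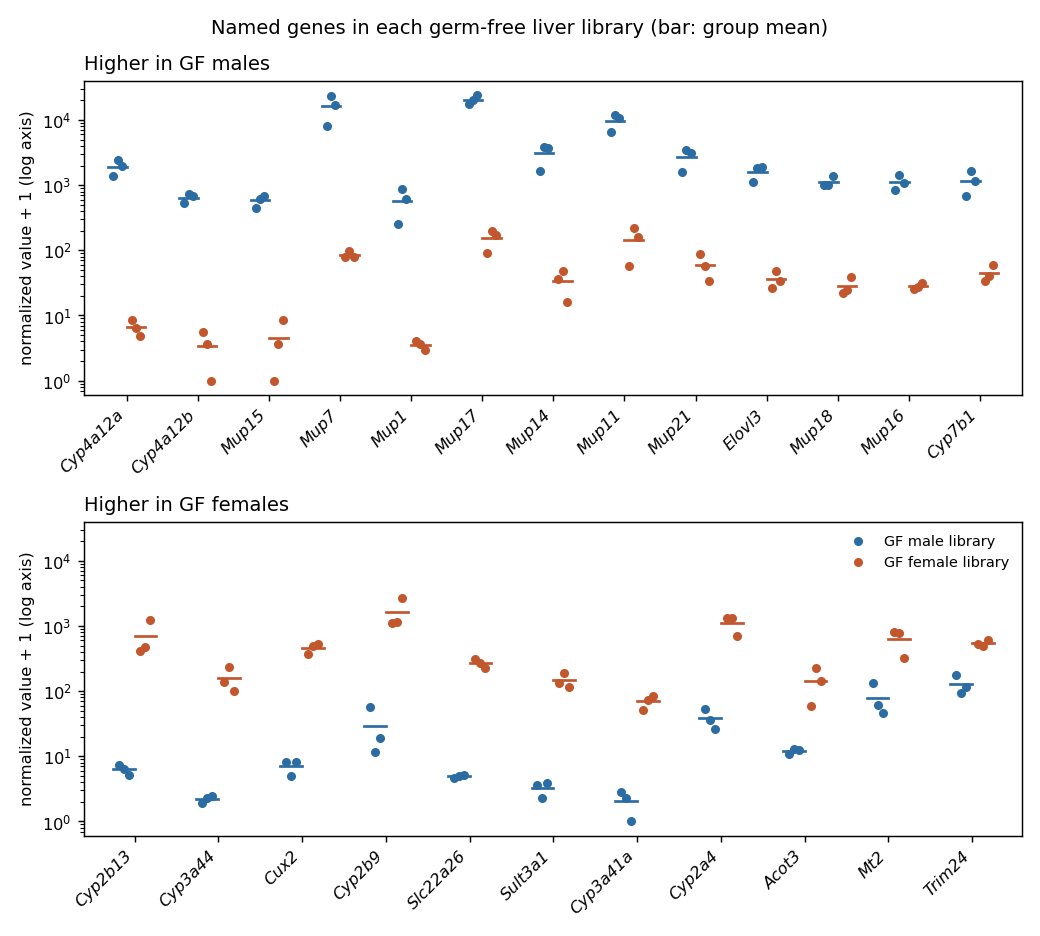
Points are single GF libraries (blue, males; orange, females) and bars are group means of the normalized value + 1 on a log axis, for genes named by p-value or size in each direction. The 3 male livers lie apart from the 3 female livers in every gene shown, since genes were named only where the sexes did not overlap.

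Cytochromes P450 of families 1 to 4, which oxidize drugs, steroids and fatty acids, moved in both directions. Of 55 tested, 5 were called higher in males and 6 higher in females, beside 0.675% and 0.359% of all genes. The median of the 55 genes was 0.25. Of these genes 47 had a mean of at least 10 in both sexes. Cyp4a12a, a fatty acid hydroxylase (chromosome 4, 115299046 to 115332815, GRCm38), was at 1381, 2394 and 1985 in males and 7.55, 5.32 and 3.83 in females. No female approached the male values, and the difference was 8.20 ± 0.32 (adjusted p = 2.01e-08). Its neighbour Cyp4a12b differed by 7.87 ± 0.53, and the transcripts share 48.9% and 49.4% of their windows with other genes. Female means of Cyp4a12a and Cyp4a12b were 5.57 and 2.40, so both entered the test through their male values. Cyp2d9, a steroid hydroxylase, had means of 10879 ± 1133 in males and 972 ± 277 in females, 11.2-fold higher in males (adjusted p = 1.97e-05).

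Genes of the Cyp2a, Cyp2b and Cyp3a subfamilies accounted for 5 of the 6 called higher in females. Cyp2b13 was at 6.27, 5.32 and 4.25 in males and 406, 468 and 1229 in females (-6.63 ± 0.41, adjusted p = 7.56e-07). Cyp2b9 had means of 28.5 ± 24.5 in males and 1649 ± 885 in females (-6.01 ± 0.51). The sexes were separated in both, with one female well above the others. Cyp2a4, a steroid hydroxylase, was at 52.8, 34.6 and 25.5 in males and 1339, 1341 and 692 in females, 29.9-fold higher in females (adjusted p = 3.23e-06), while the closely related Cyp2a5 overlapped between the sexes (0.30, adjusted p = 0.765). Cyp3a44 and Cyp3a41a had 3 reads each in all male livers together and 232 and 104 reads in female livers. Of the windows of Cyp3a41a, 98.6% occur in other genes. With male means of 5.28, 1.21 and 1.04, Cyp2b13, Cyp3a44 and Cyp3a41a entered the test through their female values. Cyp2c69 was higher in females (-2.67 ± 0.38), whereas Cyp2c67 in the same gene cluster on chromosome 19 was higher in males (1.86 ± 0.35).

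Conjugating enzymes attach sulfate, glutathione or glucuronic acid to their substrates. Of 9 sulfotransferases tested, 1 was called higher in males and 3 higher in females (44.4%, beside 1.03% of all genes). Only 5 of the 9 had a mean of at least 10 in both sexes, and the 3 called higher in females entered the test through their female values. Sult3a1 was at 2.69, 1.33 and 2.83 in males and 133, 189 and 113 in females (-5.48 ± 0.45, adjusted p = 1.34e-05), and Sult2a1 and Sult2a2 had 1 read each in males and 67 and 51 reads in females. Sult2a8, which sulfates bile acids, was 2.65-fold higher in males (adjusted p = 0.0403). Of 22 glutathione S-transferases 2 were called (9.09%), both higher in males, namely Gstp1 (3.48 ± 0.47) and Gstm6 (1.91 ± 0.33). Of 16 UDP-glucuronosyltransferases, Ugt2b1 was called higher in males (2.27 ± 0.32) and Ugt1a5 higher in females (-2.08 ± 0.39), 12.5% in all. Of the windows of Ugt1a5, 64.0% occur in other genes. Of 14 carboxylesterases, Ces3a (1.69 ± 0.30) and Ces2c (3.08 ± 0.62) were called higher in males and 0 higher in females (14.3% in all).

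Transporters of organic anions and cations gave 2 genes higher in males and 3 higher in females of 19 tested (26.3%, beside 1.03% of all genes). A mean of at least 10 in both sexes was found for 17 of the 19. Slc22a26 was at 3.58, 3.99 and 4.25 in males and 306, 274 and 226 in females, 68.2-fold higher in females (adjusted p = 5.12e-07). Its male mean was 3.94, so it entered the test through its female values. Slc22a28, which lies in the same cluster, was at 139.7, 174 and 139 in males and 16.6, 18.6 and 11.5 in females, 9.69-fold higher in males (adjusted p = 9.95e-05). These neighbours were thus separated between the sexes in opposite directions. The same held for Slco1a1 (1.37 ± 0.26) and Slco1a4 (-2.47 ± 0.45) on chromosome 6. In all, 47 of the 121 called genes lay in 17 clusters in which called genes were at most 200000 bases apart. Among these were clusters of 8, 5 and 3 major urinary protein genes. The same count was not made for other gene sets of this size. Whether called genes cluster more than other genes was therefore not tested.

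**Figure D3:**
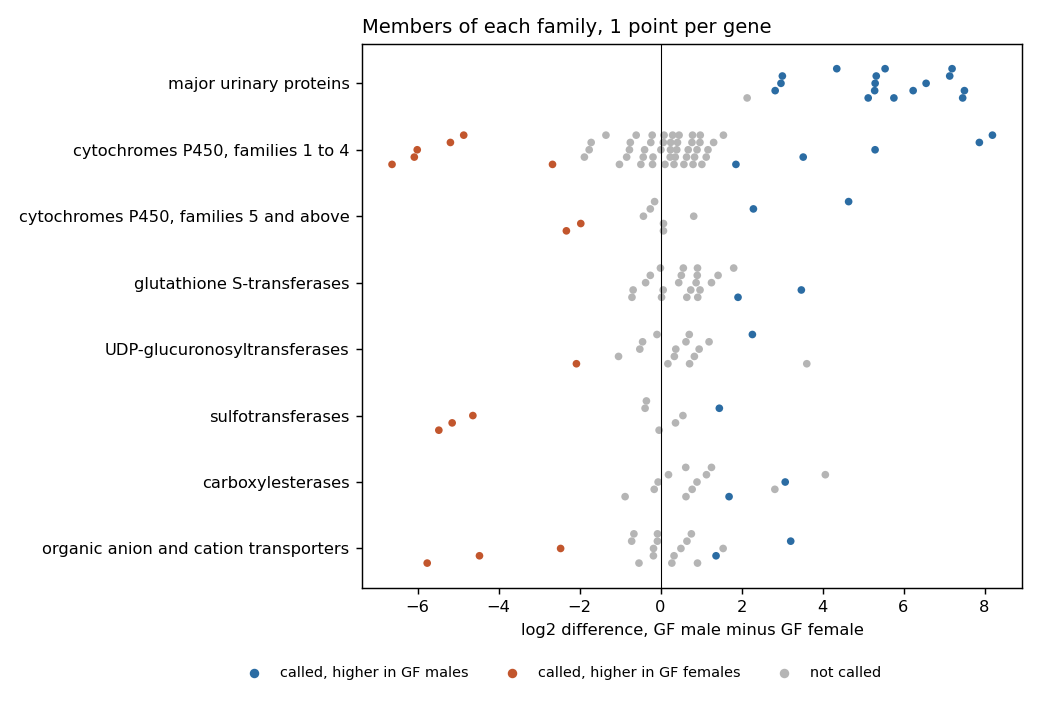
Each point is one tested gene of the family named on the vertical axis, placed by its log2 difference (GF male minus GF female), with called genes coloured. Major urinary proteins lie on the male side, and the P450, sulfotransferase and transporter families hold called genes on both sides.

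Steroid and bile acid enzymes were called in both directions. Of 23 genes of steroid metabolism, 4 were called higher in males and 1 higher in females (21.7%, beside 1.03% of all genes). Hsd3b5, a ketosteroid reductase of male liver, was at 554, 1530 and 804 in males and 24.2, 58.5 and 23.0 in females (4.74 ± 0.42, adjusted p = 2.63e-05). Srd5a1, a steroid 5-alpha reductase, was 3.75-fold higher in males (adjusted p = 0.00318). Cyp17a1, the 17-alpha hydroxylase, was higher in females (-2.33 ± 0.48, adjusted p = 0.0396), with one male at 125 and the others at 30.6 and 26.9.

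Of 31 genes of bile acid synthesis and transport, 3 were called higher in males and 2 higher in females (16.1%, beside 1.03% of all genes). Cyp7b1, the oxysterol hydroxylase of the alternative pathway, was at 693, 1652 and 1151 in males and 33.2, 39.9 and 59.4 in females (4.64 ± 0.34, adjusted p = 4.98e-06). Cyp8b1, which makes cholic acid, was at 1325, 655 and 1404 in males and 128, 255 and 312 in females (2.29 ± 0.38, adjusted p = 0.00908). Cyp39a1, another oxysterol hydroxylase, was higher in females (-1.97 ± 0.40, adjusted p = 0.0345). Cyp7a1, the rate-limiting enzyme of the classical pathway, was at 170.1, 194 and 198 in males and 149, 207 and 182 in females, so that the sexes overlapped (0.07 ± 0.26, adjusted p = 0.92).

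In fatty acid metabolism the called genes lay on both sides. Elovl3, an elongase of very long chain fatty acids, was at 1126, 1829 and 1902 in males and 25.7, 47.9 and 32.6 in females, 45.8-fold higher in males (adjusted p = 3.96e-07). Acacb, the acetyl-CoA carboxylase that restrains fatty acid oxidation, was higher in females (-1.29 ± 0.27, adjusted p = 0.0403), and these were the 2 called of 30 genes of fatty acid and triglyceride synthesis (6.67%, beside 1.03% of all genes). Of 46 genes of fatty acid oxidation and ketogenesis, 1 was called higher in males and 4 higher in females (10.9% in all). The former was Nudt7, a peroxisomal coenzyme A hydrolase (2.55 ± 0.31). The latter were the peroxisomal genes Acot3 (-3.37 ± 0.46), Hao2 (-3.77 ± 0.60), Acot4 (-1.69 ± 0.32) and Abcd2 (-1.99 ± 0.39).

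In carbohydrate and amino acid metabolism, G6pc, the glucose-6-phosphatase (1.65 ± 0.35, adjusted p = 0.0457), Pfkfb3 (1.19 ± 0.25, adjusted p = 0.0457) and Bhmt, which remethylates homocysteine (1.72 ± 0.29, adjusted p = 0.0097), were higher in males. They were the called genes of 30 in gluconeogenesis and glycolysis (6.67%) and 40 in the urea cycle and amino acid breakdown (2.5%), beside 1.03% of all genes. In the latter list 36 genes were higher in males and 4 higher in females, with a median of 0.43. The sexes did not overlap in 18 of the 40 with males higher and in 0 with females higher, beside 10.1% and 8.68% of all genes. A lean to males was not particular to this list. Medians were 0.39 in gluconeogenesis and glycolysis, 0.42 in complement and coagulation and 0.55 in hepatocyte markers, but -0.43 in cell cycle genes. Its cause was not tested, and the scaling also moved the median of all genes. None was called by limma among 25 genes of cholesterol synthesis and uptake, 19 of the circadian clock and 11 xenobiotic receptors and regulators. In these lists 3, 1 and 0 genes had an unadjusted p under 0.05. With 1.03% of all genes called, lists of this size can hold no call without differing from the rest.

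Of 32 genes of complement and coagulation, 4 were called higher in males and 0 higher in females (12.5%, beside 1.03% of all genes). All 4 were components of the membrane attack complex. C6 was at 1188, 1972 and 1787 in males and 179.6, 207 and 197 in females, 8.46-fold higher in males (adjusted p = 2.63e-05). C9 (2.69 ± 0.42), C8b (1.70 ± 0.36) and C8a (1.18 ± 0.25) followed. Of 32 acute phase proteins 12.5% were called. Serpina1e (4.07 ± 0.43) and Saa1 (3.58 ± 0.49) were higher in males. The metallothioneins Mt2 (-3.02 ± 0.43) and Mt1 (-2.20 ± 0.39), which bind zinc and copper, were higher in females. Of 27 cell cycle genes Mcm10 was called higher in males (2.53 ± 0.29) and Mki67 higher in females (-2.04 ± 0.42), 7.41% in all. Of the 27 genes, 7 were higher in males and 20 higher in females, with a median of -0.43.

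Lists of genes known to differ between the sexes in mouse liver were also counted. Of 32 genes of the male-biased list, 18 were called higher in males and 0 higher in females (56.25%, median 2.26). Of 43 genes of the female-biased list, 25 were called higher in females and 0 higher in males (58.1%, median -2.14). Over all genes the share called was 1.03%. A mean of at least 10 in both sexes was found for 27 and 31 of them. These lists were written with earlier results of these data known and are no independent evidence of direction. Cabyr, of the female-biased list, had a difference of 1.15 and was not called (adjusted p = 0.176).

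**Figure D4:**
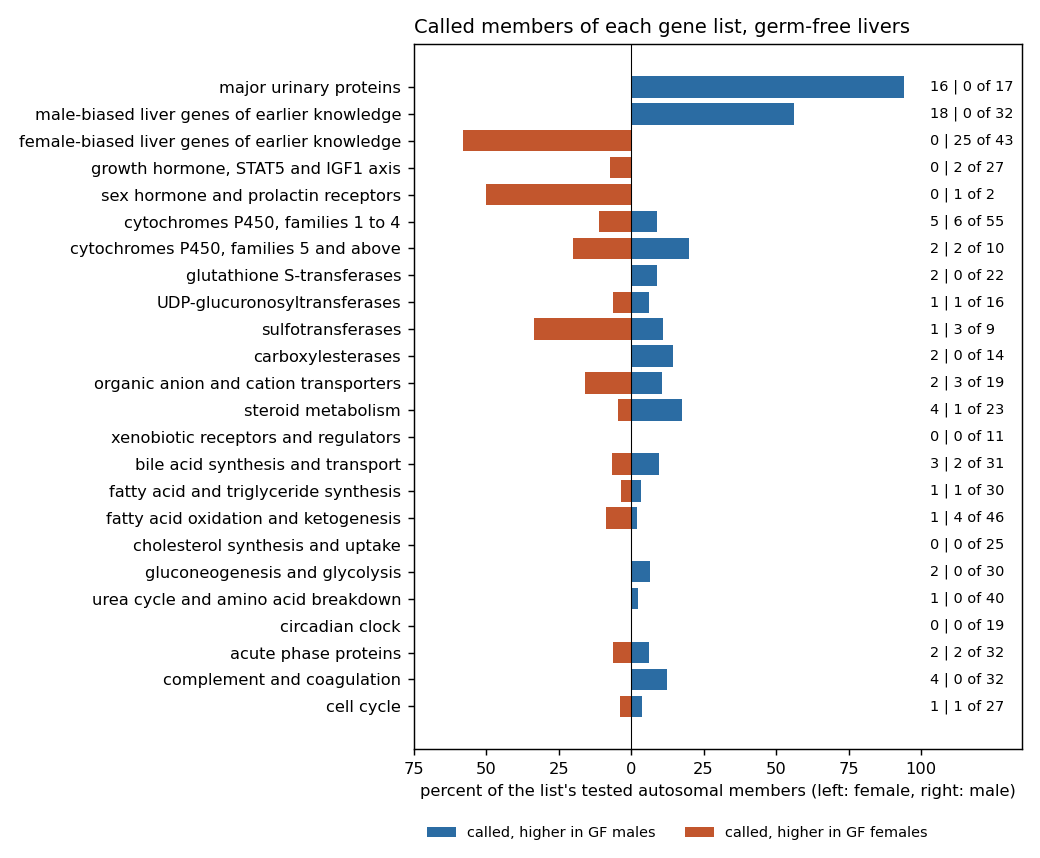
Bars give the percent of tested autosomal members of each list shown called higher in GF males (right) or GF females (left), with the counts beside them. The major urinary proteins have 16 of 17 members called higher in males, and 3 lists have no called member. Over all 11696 genes 1.03% were called.

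Markers of other liver cells were summed in each library. The summed value of 12 Kupffer cell and macrophage markers ranged from 1324 to 1600.0 in males and from 2076 to 2926 in females, that of 11 sinusoidal endothelial markers from 2344 to 3526 and from 3732 to 5722, and that of 12 stellate cell markers from 2385 to 2674 and from 3090 to 4479. No marker was at 0 throughout, and no autosomal member of these lists was called by limma, with 2, 3 and 4 members at an unadjusted p under 0.05. Sums of hepatocyte, lymphocyte, bile duct, adipose and blood markers overlapped between the sexes. Single hepatocyte markers still leaned to males, with 11 of 12 higher in males, 1 higher in females and a median difference of 0.55. Median differences of the Kupffer cell, endothelial and stellate markers were -0.70, -0.52 and -0.57. Exocrine pancreas markers were higher in males through Cela1 (2.07 ± 0.39), with 9 of the 15 at 0 in all GF livers. In whole liver, fewer cells of a type and less RNA per cell cannot be told apart, and the part of cell makeup in the differences above was not tested.

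CV livers were set beside GF livers for the same 121 genes. With all CV libraries, 75 of the 79 genes higher in GF males and 39 of the 42 higher in GF females had the same sign in CV, and 5 and 1 were called, beside 7 of all 11696 genes (0.0598%, with 0.0513% higher in males and 0.00855% higher in females). Leaving out the library labelled CV male 3, 75 and 41 had the same sign and 35 and 24 were called, beside 72 of all genes (0.616%, with 0.351% higher in males and 0.265% higher in females). The median difference of these genes was then 1.56 and -2.24 in CV, against 2.69 and -2.70 in GF. Over all genes the median difference in CV was 0.01 without that library. The share of all genes with the same sign in GF and CV is not given here, so the same-sign counts stand without a background. Since the genes were chosen in GF livers, smaller values in CV carry no test.

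The difference between the sex differences was tested as an interaction. With all 12 libraries limma called 0 genes (1357 had an unadjusted p under 0.05), and edgeR called 0 (1332). When the library labelled CV male 3 was left out, limma called 4 genes (0.0342%), of which 3 were called higher in females in GF livers. The count was 271 without CV male 1 instead, and 0 without any other single library. A1bg, a plasma glycoprotein gene, was at 9.85, 12.0 and 11.3 in GF males, 179.6, 114 and 46.0 in GF females, 7.81 and 1.59 in the remaining CV males and 1824, 3404 and 3437 in CV females. The sexes were separated in both conditions, by -3.05 in GF and -9.18 in CV (interaction 6.14 ± 0.70, adjusted p = 0.00143). Cyp2a4 differed by -4.86 in GF and -8.93 in CV (interaction 4.07 ± 0.60, adjusted p = 0.0187), and Cyp2c69 by -2.67 and -6.05 (interaction 3.38 ± 0.56, adjusted p = 0.0456). With all libraries their adjusted p-values were 0.424, 0.718 and 0.6. GF and CV libraries also differed in composition. Mitochondrial ribosomal RNA genes took 9.36 to 16.4% of reads in GF libraries and 1.39 to 6.32% in CV libraries. The part of this gap in the interaction was not tested.

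**Figure D5:**
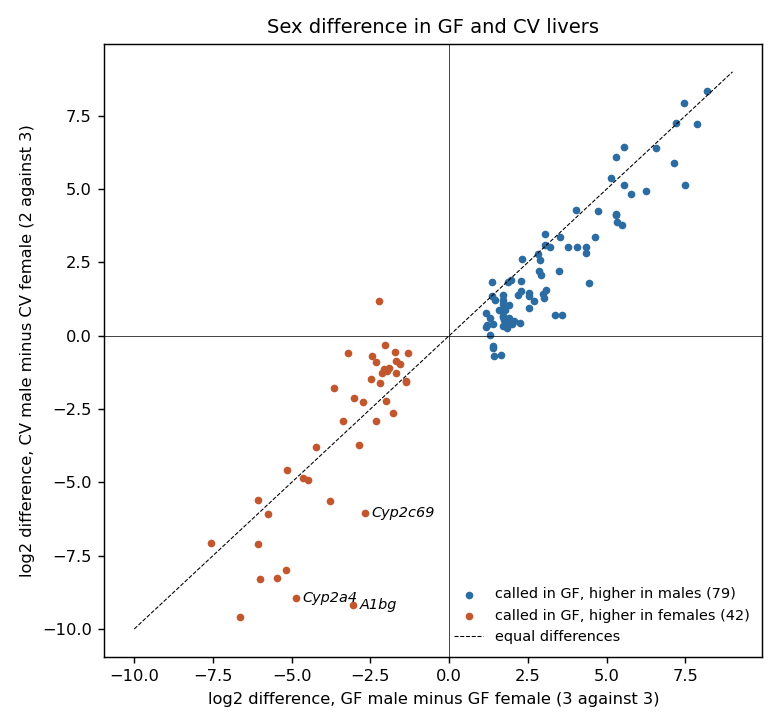
Each point is one of the 121 genes called in GF livers, with its log2 difference in GF livers (3 males against 3 females) on the horizontal axis and in CV livers without the library labelled CV male 3 (2 against 3) on the vertical axis. The dashed line marks equal differences, and A1bg, Cyp2a4 and Cyp2c69 lie below it.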

How the data were processed

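Stranded poly(A) libraries of 12 mouse livers were analysed, and groups were taken from the sample titles. The submitters' processing notes name HTSeq 0.6.1p1, DESeq2 and GRCm38. The aligner is not given in the sources used here, and the paper supplied describes another experiment. The deposited values are a normalized signal, in which the authors divided gene counts by a size factor for each library, and 100% of values were whole multiples of 1 read within 0.01 reads. Recovered reads numbered 5993619 to 10975691 in GF libraries. Limits from reads cover counting error only.

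The 6 GF libraries were fitted with limma 3.58.1 (R 4.3.3) on log2(value + 1), with a variance trend, for 12108 genes on all chromosomes with a mean of at least 10. P-values were adjusted by the Benjamini-Hochberg method over all of them, with a threshold of 0.05. CV and interaction contrasts used all 12 libraries. Named genes had an established symbol, were called without overlap of the sexes, and had the 12 smallest adjusted p-values or the 6 largest differences in each direction, and members of gene lists could be named. Some genes that these rules select are not reported here. Gene positions are from GENCODE on GRCm38, which held 40254 of the 41128 identifiers. Genes and lists were chosen with earlier results of these data known. Alternatives included edgeR 4.0.16 and DESeq2 1.42.0 on recovered reads, and the script was tested on simulated data.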

Additional observations from a re-analysis of the deposited data

Results flagged for a closer look

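The library labelled CV male 3 had a Xist value of 2382 and no reads of Ddx3y, which goes against its label. It was singled out because this is a signal in a library that the comparison of GF livers does not use. The cause was not tested.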

How the results depend on the processing

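The 121 called genes kept their direction in each of the 28 settings in which they were tested. Of these genes 6 (Elovl3, Mup14, Mup7, Mup18, Mup16 and Mup17) were tested and called in all 28. A gene not tested in a setting counted as not called there, and 97 of the 121 were tested with a mean of at least 10 in each sex. Cyp4a12a, Cux2, Slc22a26 and Cyp2b13, for example, were not tested in that setting. They were called with both covariates, with the 3 scalings and with each library left out in turn. The count of 121 became 253 with 11 libraries in one fit, 184 with all 12, 269 with DESeq2, 70 without the variance trend, 78 with a mean of at least 10 in each sex, 571 with scaling to all reads, 64 at a threshold of 0.01, 13 with the mitochondrial ribosomal RNA share as covariate and 18 with the log2 number of reads outside the abundant loci, the last chosen after seeing the data. Scaling to all reads shifted the median of all genes by 0.36 and gave 92.8% of calls higher in males, and scaling to reads outside the abundant loci shifted it by -0.29 and gave 53.8%. Leaving out one library gave 56 to 546 calls, namely 56 without GF female 1, 546 without GF female 2, 75 without GF male 2 and 62 without GF male 3. Over the gene lists 77 genes were called, and 17 and 13 with the covariates on reads and mitochondrial share, 51 with a mean of at least 10 in each sex, 136 with scaling to all reads and 45 to 125 with one library left out. In CV livers 7 genes were called, 22 with edgeR, 17 with scaling to all reads and 3 to 72 with one library left out. The interaction gave 0 calls, 8 with scaling to all reads and 0 to 271 with one library left out, the highest without CV male 1. The causes were not tested.

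With the replicate number as a block, 675 genes were called in GF livers, 144 over the gene lists, 24 in CV livers and 1 for the interaction. Deviations of same-numbered males and females correlated by 0.05, 0.38 and 0.06, so the numbers were not taken to pair the mice, and not every library correlated best with its own number.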
